A study of Mus musculus with 2 samples.

Results

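The transcripts described here are 87 mouse genes whose array intensity was higher in a vesicle fraction eluted with 0.3 M NaCl than in a fraction eluted with 0.5 M NaCl. They are 87 of 19316 genes named on the array. The vesicles came from the culture medium of murine CTL (cytotoxic T lymphocytes, T cells that destroy infected cells), which had been kept in culture for 7 days. Both fractions were prepared by the same steps. The medium was concentrated, with protein removed, by ultrafiltration at a 750 kDa cutoff before DEAE chromatography. The labels and files used here do not name the strain, the age of the animals, the stimulus or how many preparations went into a fraction. Each fraction was measured on 1 array, so single probes are noisy and no value below has a replicate, an SD or a test.

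Extracellular vesicles are small membrane sacs that cells release and that carry protein, lipid and RNA of the parent cell. DEAE is a positively charged resin that holds negatively charged particles, and more salt is needed to release particles that carry more negative charge. Vesicles of cytotoxic T cells are known to hold granule proteins, such as granzymes, along with fragments or full copies of messenger RNA.

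The genes were chosen by the measured values themselves. A probe was eligible if it carried 1 gene symbol, had an intensity of 60 or more at 0.3 M and 25 or more at 0.5 M, and was not at 4000 or more on both arrays. Globin genes, olfactory receptors and Ptpn23 were left out, which removed 9 probes that passed the ratio (1 globin, 7 olfactory receptors and Ptpn23 itself). A gene belongs to the set if its deposited intensity at 0.3 M was at least 2.46 times that at 0.5 M. The medians over probes measured on both arrays were 32 at 0.3 M and 26 at 0.5 M, a shift of 0.30 on the log2 scale, so this ratio corresponds to about 2-fold once each array is centred on its median. All log2 differences below are 0.3 M minus 0.5 M after that centring, and a positive one means higher at 0.3 M. Of 4476 eligible probes, 87 passed the ratio (1.94%), each from a different gene. In the opposite direction 226 of the same probes were at least 2-fold higher at 0.5 M after centring (5.05%). Under some scalings given below, and as deposited, more probes were 2-fold higher at 0.3 M than at 0.5 M. Because the ratio chose the genes, their differences are a description and lend no support to a difference between the fractions.

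**Figure D1:**
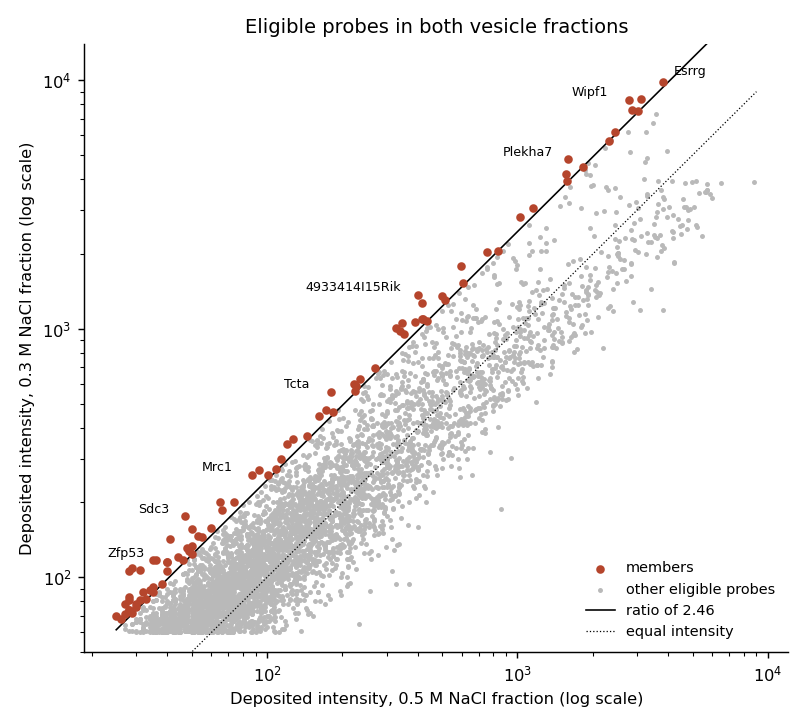
Deposited intensity at 0.3 M NaCl (vertical, log scale) against 0.5 M NaCl (horizontal, log scale) for the 4476 eligible probes, with 1 array per fraction. The 87 chosen genes lie on or above the solid line, a ratio of 2.46, and above about 1000 at 0.3 M the points split into an upper and a lower arm.

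The RNA carried marks of the labelled cells. All 10 CTL marker genes looked up were on the array, and 8 of them reached 60 in each fraction, led by the transcription factor Tbx21 at 39433 (0.3 M) and 25174 (0.5 M). Cd8a, the coreceptor of these cells, was at 3677 and 2463 on 1 probe and had no value on another. Gzmb, a granzyme, was at 2493 and 2838 and Ifng, a cytokine, at 468 and 238. Cd3e, a chain of the T cell receptor complex, was dim at 12 and 14, and the pore former Prf1 at 33 and 26. The other CTL markers, Cd3d, Cd3g, Cd8b1 and Nkg7, were higher at 0.5 M. They were at 849 and 990, 105 and 162, 333 and 496, and 405 and 548, in that order. None of these CTL genes is in the set. Some markers of other cells also reached 60, such as the B cell genes Cd22 (225 and 126) and Cd79b (94 and 328). The NK cell gene Klra8 was at 151 and 244. Blnk of B cells was at 26 and 63, Cdh5 of endothelium at 79 and 48, Krt18 of epithelium at 63 and 44. Snap25 of neurons was at 57 and 86. In bulk RNA of this kind, fewer vesicles that hold a transcript and less of it per vesicle cannot be told apart.

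Ratios in the set were modest and close together. They ran from 2.46 to 3.79 with a median of 2.68, which is a median log2 difference of 1.12. After centring, 11 of the 87 genes were at least 2.5-fold higher at 0.3 M, 3 were at least 3-fold higher and 0 were 4-fold higher. Just inside the threshold stood Bambi at 4491 and 1822, Coro7 at 2061 and 836 and Dync1li1 at 5720 and 2314. Just outside stood Cgrrf1 at 471 and 192, with Tdg and Mboat1 both at 93 and 38. The set therefore has no gap at its edge. The spread between probes gives only a rough scale for these sizes. In 605 genes with exactly 2 measured probes, at any intensity, the log2 differences of the 2 probes were compared. The SD of the gap between them, divided by the square root of 2, was 0.57. The differences of all eligible probes had an SD of 0.55. Eligible probes are brighter, with a median of 140 at 0.3 M against 32 over all shared probes. The 2 SDs are therefore not on the same footing.

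Promoter sequences are shown for the extremes of the set, since the genes differ widely in the kind of promoter they carry. Mouse promoters fall broadly into CpG-rich ones, usual for genes active in many tissues, and CpG-poor ones, usual for genes restricted to few tissues. RefSeq promoters of build GRCm38.p6, running from 250 bases before to 50 after the start, were at hand for 65 of the 87 genes, and the first one listed was taken. Lrrc58 and Fmnl2 had the most CpG dinucleotides among named genes with a single listed promoter, and Defb9 and Nlrp4e had 0. CpG dinucleotides are in capitals.
Lrrc58, chr16:37868150-37868449, plus strand: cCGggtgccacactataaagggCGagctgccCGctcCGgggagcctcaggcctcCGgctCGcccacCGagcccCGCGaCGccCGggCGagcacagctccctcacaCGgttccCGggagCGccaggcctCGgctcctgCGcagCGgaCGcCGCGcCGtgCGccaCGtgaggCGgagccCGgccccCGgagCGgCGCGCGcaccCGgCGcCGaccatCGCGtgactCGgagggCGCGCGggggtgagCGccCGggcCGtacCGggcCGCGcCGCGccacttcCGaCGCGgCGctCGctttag
Fmnl2, chr2:52857618-52857917, plus strand: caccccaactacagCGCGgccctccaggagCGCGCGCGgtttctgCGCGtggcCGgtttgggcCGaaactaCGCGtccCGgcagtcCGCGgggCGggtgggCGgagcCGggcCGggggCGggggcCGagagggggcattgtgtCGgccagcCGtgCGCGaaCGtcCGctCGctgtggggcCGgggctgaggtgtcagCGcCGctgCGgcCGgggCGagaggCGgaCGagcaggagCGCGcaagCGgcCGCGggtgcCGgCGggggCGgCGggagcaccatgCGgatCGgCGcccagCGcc
Defb9, chr8:21885385-21885684, minus strand: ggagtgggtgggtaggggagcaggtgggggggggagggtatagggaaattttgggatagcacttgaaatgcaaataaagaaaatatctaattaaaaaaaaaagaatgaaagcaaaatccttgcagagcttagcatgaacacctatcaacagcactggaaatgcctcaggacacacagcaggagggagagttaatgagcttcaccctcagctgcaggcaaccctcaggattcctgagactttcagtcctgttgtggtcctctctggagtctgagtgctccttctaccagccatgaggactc
Nlrp4e, chr7:23300942-23301241, plus strand: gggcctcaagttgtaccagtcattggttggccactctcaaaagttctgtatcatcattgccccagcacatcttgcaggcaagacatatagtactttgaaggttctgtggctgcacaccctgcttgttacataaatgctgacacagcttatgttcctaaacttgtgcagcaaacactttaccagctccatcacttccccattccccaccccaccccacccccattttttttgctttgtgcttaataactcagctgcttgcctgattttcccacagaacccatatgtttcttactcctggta

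The window of Lrrc58, a leucine-rich repeat protein, held 53 CpG dinucleotides and that of the formin Fmnl2 held 49. Across the set the median was 19 CpG dinucleotides, against 20 over 3463 promoters of eligible genes and 7 over all 27025 promoters. Windows with 5 or fewer CpG made up 21.5% in the set (14 of 65), 13.7% among eligible genes and 43.6% among all promoters. The 14 genes were Defb9, Nlrp4e, Slc39a10, Vsig8, 1700019N19Rik, Tmem52b, Aadac, Capn11, Lcn2, Mrc1, Nwd2, Pde2a, F5 and Lgals4. Windows with 20 or more CpG made up 49.2% in the set and 50.9% among eligible genes.

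Short motifs were searched on both strands of the same windows. A TATA box core (TATAAA) was present in 7.69% of promoters of the set, 8.81% of those of eligible genes and 14.2% of all promoters. The GC box (GGGCGG) was present in 61.5%, 60.6% and 35.9%, and the CCAAT box (CCAAT) in 47.7%, 39.7% and 37.9%. An ETS site (CCGGAAG) was found in 12.3% of the set, against 18.7% of eligible genes and 9.12% of all. The E-box (CACGTG) was found in 12.3%, against 10.9% and 7.24%, and the NRF1 core (GCGCATG) in 3.08%, against 6.90% and 4.04%. No overlap between different motifs was removed, and a window may hold several.

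**Figure D2:**
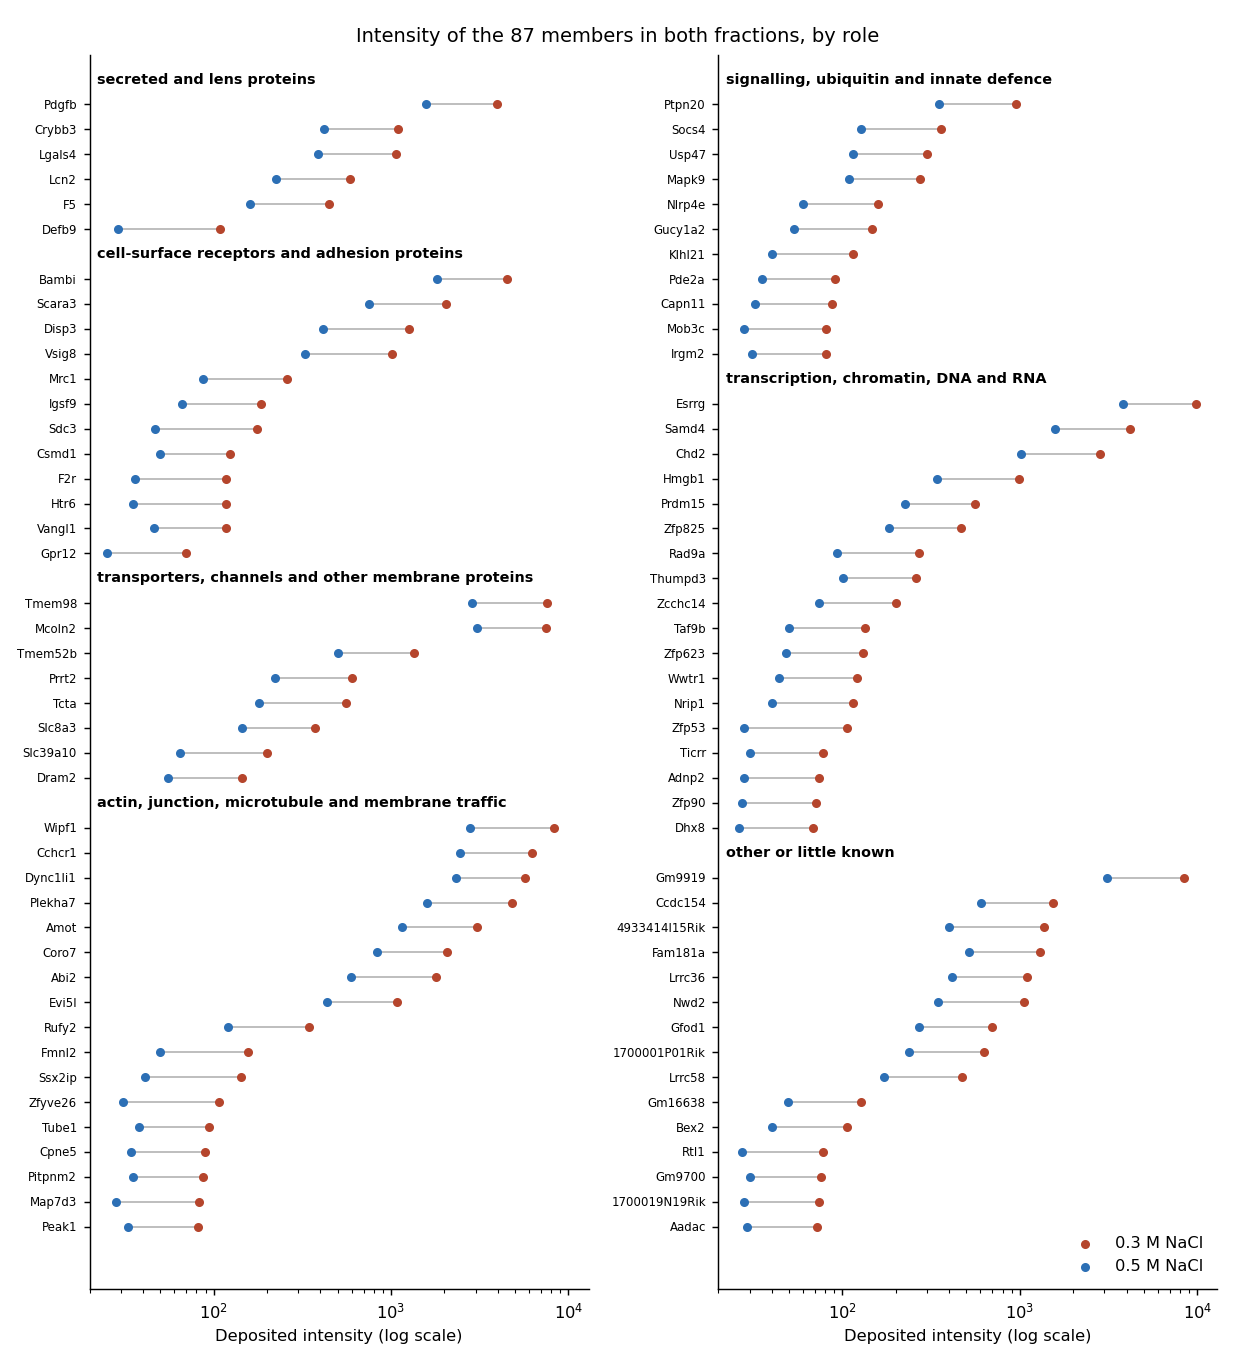
Deposited intensity (horizontal, log scale) of each of the 87 genes at 0.3 M (red) and 0.5 M NaCl (blue), grouped by role and ordered by the 0.3 M value, with 1 array per fraction. The grey lines are of similar length throughout, since ratios ran only from 2.46 to 3.79, while intensities at 0.3 M ran from 68 to 9851.

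Intensities spanned a wide range. At 0.3 M they ran from 68 to 9851 with a median of 270, and at 0.5 M from 25 to 3809 with a median of 101. At 0.3 M 39 genes were under 200 and 27 were at 1000 or more. Roles were given to the genes after the set was known, and are used to order the description. A probe's intensity depends on its sequence as well as on its transcript, so intensities of different genes are not set against each other.

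Secreted and lens proteins numbered 6. Defb9, a beta-defensin of the antimicrobial peptide family, had the second largest deposited ratio in the set. It was at 109 at 0.3 M and 29 at 0.5 M (log2 difference 1.61). This rank depends on the processing. With a pseudocount, a constant added to each intensity, the difference of Defb9 was 1.28, below 1.55 for 4933414I15Rik. With a loess trend it was 1.64, below 1.86 for Wipf1. Pdgfb, a chain of a growth factor for mesenchymal cells, was at 3950 and 1582 (1.02). The lens crystallin Crybb3 was at 1094 and 420, and Lgals4, a galectin of gut epithelium, at 1066 and 389. Lcn2, which binds bacterial iron carriers, was at 587 and 226. Coagulation factor V, encoded by F5, was at 445 and 161 (1.17).

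Cell-surface receptors and adhesion proteins numbered 12, with a median ratio of 2.90. Medians of the 7 role groups ran only from 2.65 to 2.90. The ratio chose the genes, so nothing is read from the order of the groups. Sdc3, a syndecan that carries heparan sulfate chains, was at 176 and 47 (1.61). A trio of G protein-coupled receptors belonged here. Htr6, a serotonin receptor, was at 117 and 35 (1.44), the thrombin receptor F2r at 117 and 36 (1.40) and the orphan receptor Gpr12 at 70 and 25 (1.19). Mrc1, the mannose receptor of macrophages, was at 259 and 87 (1.27). Other macrophage and dendritic cell markers did not accompany it. Of the 8 looked up, Mrc1 alone reached 60 at either salt, Cd68 was at 50 and 53, Csf1r at 49 and 50, Lyz2 at 18 and 18, and Adgre1 had no value in either fraction.

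The remaining surface proteins had both bright and dim probes. Immunoglobulin domain proteins were Vsig8, at 1011 and 327 (1.33), and Igsf9, at 186 and 66 (1.20). Bambi, a decoy receptor of the TGF-beta family, was at 4491 and 1822, and Scara3, of the scavenger receptor family, at 2037 and 754 (1.13). Disp3, a membrane protein of the dispatched family, was at 1269 and 416 (1.31). Csmd1, a large protein with complement control repeats, was at 124 and 50 (1.01), and Vangl1, of the planar cell polarity pathway, at 117 and 46 (1.05).

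Transporters, channels and other membrane proteins numbered 8. Mcoln2, a cation channel of endosomes and lysosomes, was at 7517 and 3039 (1.01). Slc39a10, a zinc importer, was at 200 and 65 (1.32), while the sodium-calcium exchanger Slc8a3 was at 371 and 145 (1.06). Dram2, a lysosomal protein linked to autophagy, was at 145 and 55 (1.10), and Prrt2, a protein of presynaptic endings, at 599 and 222 (1.13). Tcta, named for a translocation in T cell leukaemia, was at 558 and 180 (1.33). The transmembrane protein Tmem98 was at 7601 and 2860 (1.11), and Tmem52b at 1353 and 500 (1.14).

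Genes of actin, cell junctions, microtubules and membrane traffic numbered 17, of which 8 were at 1000 or more at 0.3 M. Wipf1, which binds and stabilises the actin regulator WASP in T cells, was at 8328 and 2792 (1.28). Abi2, a part of the WAVE complex that drives branched actin, was at 1786 and 597 (1.28). The formin Fmnl2, which extends actin filaments, was at 157 and 50 (1.35). The list of formins, actin nucleators and actin regulators, which leaves out Abi2 and Coro7, had 32 eligible probes. Like all gene lists here, it was drawn up with earlier results of these data known. Fmnl2 and Wipf1 were its members (6.25%, beside 1.94% for all eligible probes), and 3 of its probes were at least 2-fold higher at 0.5 M. The median difference of the 32 probes was -0.26. Coro7, a coronin of the Golgi, was at 2061 and 836.

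Junction and microtubule genes followed. Plekha7, of the adherens junction, was at 4809 and 1591 (1.30), and angiomotin, encoded by Amot, at 3057 and 1151 (1.11). Dync1li1, a light intermediate chain of the motor dynein, was at 5720 and 2314 (1.01). Ssx2ip, a protein of centrosomes and junctions, had 143 and 41, a ratio of 3.49. Cchcr1, a coiled-coil protein of the centrosome, was at 6192 and 2458 (1.03). Map7d3, which binds microtubules, was at 83 and 28 (1.27), and epsilon tubulin, encoded by Tube1, at 94 and 38 (1.01). Peak1, a pseudokinase of the cytoskeleton, was at 82 and 33 (1.01).

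Membrane traffic was represented by a handful of genes. Zfyve26, which acts at lysosomes, was at 107 and 31 (1.49), Rufy2, a RUN and FYVE domain protein, at 343 and 120 (1.22) and Evi5l, a regulator of Rab proteins, at 1079 and 435 (1.01). Pitpnm2, a lipid transfer protein, was at 87 and 35 and Cpne5, a copine that binds phospholipid, at 89 and 34. In 22 eligible probes of ESCRT and vesicle biogenesis genes, Sdc3 was the only member (4.55%, beside 1.94% of all eligible probes). The median difference of the 22 probes was -0.14, and 2 were at least 2-fold higher at 0.5 M. A list of small GTPases and their regulators, drawn up by symbol and without Evi5l, had 0 members among 76 probes. In it 1 probe was at least 2-fold higher at 0.5 M. With 1.94% of all eligible probes in the set, nothing is read from 0 in a list of this size.

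Signalling, ubiquitin and innate defence genes numbered 11, and 0 of them reached 1000 at 0.3 M. Ptpn20, a tyrosine phosphatase, was at 955 and 351 (1.14). Socs4, of the family that damps cytokine signals, was at 359 and 127 (1.20), and Mapk9, the stress kinase JNK2, at 272 and 109 (1.02). Enzymes of cyclic nucleotides were Gucy1a2, a subunit of soluble guanylate cyclase, at 147 and 53 (1.17), and Pde2a, which degrades cyclic nucleotides, at 91 and 35 (1.08). Ubiquitin genes were the protease Usp47, at 299 and 114 (1.09), and the ligase adaptor Klhl21, at 115 and 40 (1.22). Irgm2, a GTPase induced by interferon, was at 81 and 31 (1.09). It was the only member among 15 eligible interferon-stimulated probes (6.67%, beside 1.94% of all eligible probes). Nlrp4e, of a family of innate sensors, was at 158 and 60 (1.10), the calpain protease Capn11 at 87 and 32 and Mob3c, of the MOB kinase regulators, at 81 and 28.

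Genes of transcription, chromatin, DNA and RNA numbered 18. Zfp53, a C2H2 zinc finger protein, had the largest deposited ratio of the set, with 106 at 0.3 M and 28 at 0.5 M (1.62). Its 0.5 M value was close to the floor of 25, and its rank depends on the processing. With the pseudocount its difference was 1.28, below 1.55 for 4933414I15Rik. With loess it was 1.65, below 1.86 for Wipf1. Zfp53, Zfp623 (131 and 48), Zfp90 (71 and 27) and Zfp825 (464 and 184) made up 4 of 82 eligible C2H2 zinc finger probes. That is 4.88%, beside 1.94% of all eligible probes. Of the 82 probes, 3 were at least 2-fold higher at 0.5 M, and the median difference was 0.05. Prdm15, which also carries zinc fingers, was at 560 and 224 (1.02), and Adnp2, a homeobox protein, at 74 and 28 (1.10).

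Other nuclear genes were regulators of transcription and chromatin. Esrrg, an orphan nuclear receptor known from heart, muscle and brain, had the brightest probe of the set, at 9851 and 3809 (1.07). Nrip1, a corepressor of nuclear receptors, was at 115 and 40 (1.22), and Wwtr1, the coactivator TAZ, at 121 and 44 (1.16). Chd2, a chromatin remodeller, was at 2823 and 1019 (1.17). Hmgb1, a chromatin protein that acts as a danger signal outside the cell, was at 983 and 340 (1.23). Taf9b, of the general transcription machinery, was at 134 and 50.

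DNA and RNA metabolism completed the group. Rad9a, of the DNA damage checkpoint clamp, was at 270 and 93 (1.24), and Ticrr, which helps to start DNA replication, at 78 and 30 (1.08). Samd4, an RNA-binding repressor of translation, was at 4183 and 1569 (1.12). Thumpd3, known in human cells as a tRNA methyltransferase, was at 259 and 101 (1.06). The splicing helicase Dhx8 was at 68 and 26, and Zcchc14, a zinc knuckle protein, at 201 and 74. Of the 27 eligible probes of the list for DNA replication and mitosis, 0 were members. The share of all eligible probes is 1.94%, so nothing is read from this count.

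Other or little known genes numbered 15. Nwd2, with NACHT and WD domains, was at 1060 and 346 (1.32), the liver esterase Aadac at 72 and 29 (1.01) and Rtl1, an imprinted gene derived from a retrotransposon, at 78 and 27 (1.23). Predicted and RIKEN names made up 6 of 291 eligible probes of that kind (2.06%, near the share of all eligible probes). Among them, 4933414I15Rik was at 1369 and 399 (1.48) and Gm9919 at 8444 and 3101 (1.15), while 1700001P01Rik was at 629 and 236. The others, Gm16638, Gm9700 and 1700019N19Rik, lay between 74 and 128 at 0.3 M. Gfod1, Lrrc36, Lrrc58, Fam181a, Ccdc154 and Bex2 had ratios from 2.53 to 2.74, such as Ccdc154 at 1534 and 605.

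Gene lists placed few of these genes together. The lists were drawn up with earlier results of these data known, so their shares are a description. Of 35 lists, 15 held a member and 20 held 0, and 59 of the 87 genes were in no list. The shares below stand beside 1.94% of all eligible probes. The G protein-coupled receptors outside smell and taste had 3 members among 24 eligible probes (12.5%), with a median difference of 0.23 and 2 probes at least 2-fold higher at 0.5 M. Solute carriers had 2 of 64 (3.12%), with a median of 0.24. Single members came from 6 defensin probes, 9 probes of proteoglycans and their synthesis enzymes, 23 Ccdc probes, 39 protein phosphatase probes and 60 protein kinase probes. Tmem genes had 2 of 55 probes (3.64%) and ubiquitin genes 2 of 93 (2.15%), near the share of all eligible probes. With counts this small, a list's share moves by a large step with a single probe.

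The lists of T cell machinery and of energy metabolism held 0 members. With 1.94% of all eligible probes in the set, a list this small can hold 0 by its size, and nothing is read from these counts. There were 0 among 21 eligible probes of CTL surface receptors and signalling, where the median difference was -0.52, and 0 among 8 probes of CTL effector molecules, where it was -0.53. The 69 probes of the respiratory chain and ATP synthase had 0 members, 11 at least 2-fold higher at 0.5 M and a median of -0.66. Cytosolic ribosomal proteins (29 probes, median -0.49), mitochondrial ribosomal proteins (45, -0.42) and histones (31, -0.88) also had 0. So did the list of ion channel subunits (23 probes), which is drawn up by symbol and leaves out Mcoln2, and those of keratins (21), cytochrome P450 enzymes (11), vomeronasal, taste and trace amine receptors (8) and CTL markers (7). Among markers of other cells, Mrc1 was the only member. B cell markers had 2 eligible probes, markers of NK cells, of endothelium and fibroblasts and of epithelium 1 each, and those of neutrophils and mast cells, red cells and platelets, and neurons 0.

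The share of probes past the threshold differed with brightness in both directions. Between 60 and 100 at 0.3 M it was 1.20% of 1505 eligible probes, between 100 and 200 1.57% of 1341, between 200 and 500 1.43% of 912 and between 500 and 1000 8 of 400 probes. Between 1000 and 4000 it was 5.82% of 292, and at 4000 or more 38.5% of 26. The bands use the 0.3 M intensity, which is also the upper term of the ratio, so level and difference are not independent here. The floor of 25 at 0.5 M lowers the share of the dimmest band. It kept out 11 probes past the ratio, all with 60 to 84 at 0.3 M. After centring, the share at least 2-fold higher at 0.5 M was larger in each band below 4000. From dim to bright it was 2.99%, 4.03%, 5.48%, 38 of 400 and 13.4%, and under the rule 0 of 26 from 4000 upward. This order depends on the scaling. With loess, 193 of all eligible probes were 2-fold higher at 0.3 M and 91 at 0.5 M. The median difference between 1000 and 4000 was -0.42 with centring and 0.07 with loess. The value of 38.5% follows in part from the rule, which drops a probe at 4000 or more on both arrays and so keeps, above 4000 at 0.3 M, only probes that are dimmer at 0.5 M. With those probes restored, 13 of 158 were past the ratio (8.23%) and 25 were at least 2-fold higher at 0.5 M (15.8%). The 3 added were Nfkbil1 (11722 and 4568), Nyap2 (11668 and 4476) and the actin crosslinker Actn4 (20032 and 8102).

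**Figure D3:**
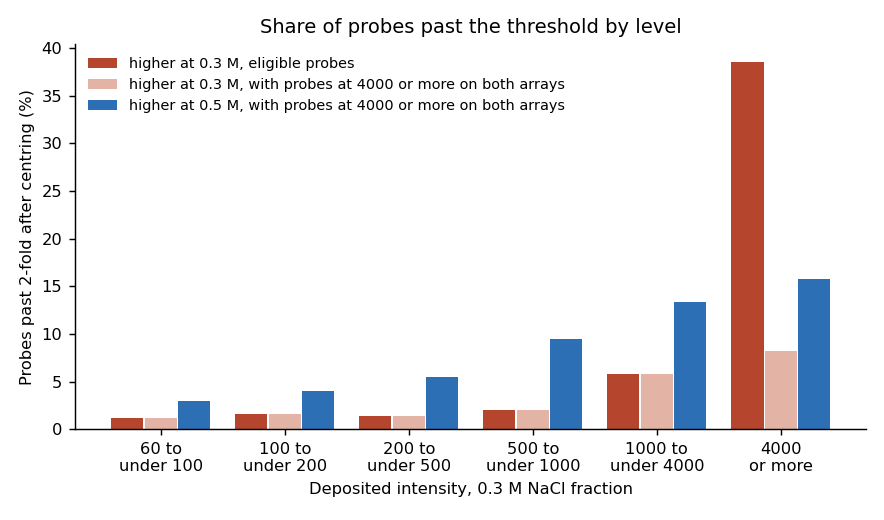
Share of probes (vertical, percent) at a ratio of 2.46 or more, by their intensity at 0.3 M NaCl (horizontal). It is given for eligible probes and with the probes restored that were at 4000 or more on both arrays. Beside it stands the share at least 2-fold higher at 0.5 M after centring, with those probes restored. The share is 1.20% to 1.57% below 500, 5.82% from 1000 to 4000, and in the brightest band it is 38.5% under the rule and 8.23% without its upper limit, where 15.8% were 2-fold higher at 0.5 M.

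Bright probes had 2 separate modes, which is where the bright members sit. Of 450 probes at 1000 or more at 0.3 M, with no upper limit, 34.7% had a difference from -1 to -0.5, only 9.56% from 0 to 0.5, then 16.4% from 0.5 to 1 and 6.67% at 1 or more. Dimmer probes had a single mode around 0. Of 2846 probes between 60 and 200, 33.0% lay from -0.5 to 0 and 35.3% from 0 to 0.5, while 342 probes lay from 0.5 to 1. Which genes stood on each side of the gap differed in kind. Ribosomal protein and respiratory chain genes made up 60 of the 303 bright probes below 0 (19.8%), against 1 of the 104 bright probes at 0.5 or more (0.962%). The median genomic span was 3.57 kb for those below 0 and 23.9 kb for those at 0.5 or more. Between them, the 43 bright probes from 0 to 0.5 held 1 ribosomal protein or respiratory chain gene (2.33%). Their median span was 16.4 kb. The 2 sides were split on the measured difference, so this is a description.

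Long genes were common in the set. Genomic span, from the first to the last base of the gene with its introns, was not used by the rule and was taken from RefSeq. The median span was 34.4 kb over the 87 genes, 16.2 kb over 4442 eligible probes with a span and 6.86 kb over 281 probes that were at least 2-fold higher at 0.5 M under mirrored floors. That mirrored set holds 285 of 3924 probes (7.26%). Genes over 100 kb made up 17.2% of the set (15 genes), 7.79% of eligible probes and 4.27% of the mirrored set. The longest were Csmd1 (1643 kb), Esrrg (606 kb), Gucy1a2 (373 kb) and Fmnl2 (276 kb), and the shortest Gm9700 (1.21 kb) and Bex2 (1.67 kb).

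The longer span was present at each level of intensity. Between 60 and 200 at 0.3 M the median was 29.5 kb over 39 genes of the set and 18.0 kb over eligible probes. Between 200 and 1000 it was 37.0 kb over 21 genes and 13.8 kb, and at 1000 or more 35.0 kb over 27 genes and 7.88 kb. Restricting to protein-coding genes changed it little, with 34.6 kb over 83 genes of the set, 17.0 kb over eligible probes and 8.49 kb over the mirrored set. Genes are not independent replicates, and only 2 arrays stand behind these figures.

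**Figure D4:**
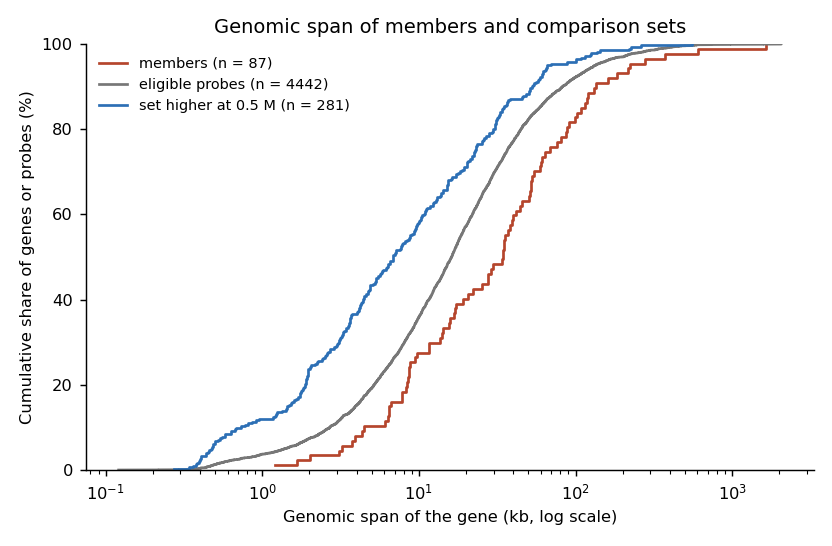
Cumulative share (vertical, percent) of genes or probes by the genomic span of the gene (horizontal, kb, log scale) for the 87 members, 4442 eligible probes and 281 probes at least 2-fold higher at 0.5 M. The curve of the members lies to the right, with medians of 34.4, 16.2 and 6.86 kb.

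The relation to span also held across eligible probes as a graded shift. Eligible probes were split into 4 groups of equal size at spans of 6.57, 16.2 and 36.5 kb. From the shortest to the longest group the median difference was -0.32, -0.11, 0.02 and 0.12. The share past the ratio was 1.17%, 1.62%, 1.53% and 3.51%, so 39 of the 87 genes were in the longest group. The share at least 2-fold higher at 0.5 M ran the other way, at 11.0%, 3.60%, 3.24% and 2.16%. Median intensity at 0.3 M also changed along these groups, at 172, 142.5, 129 and 121, and its part in the shift was not tested.

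**Figure D5:**
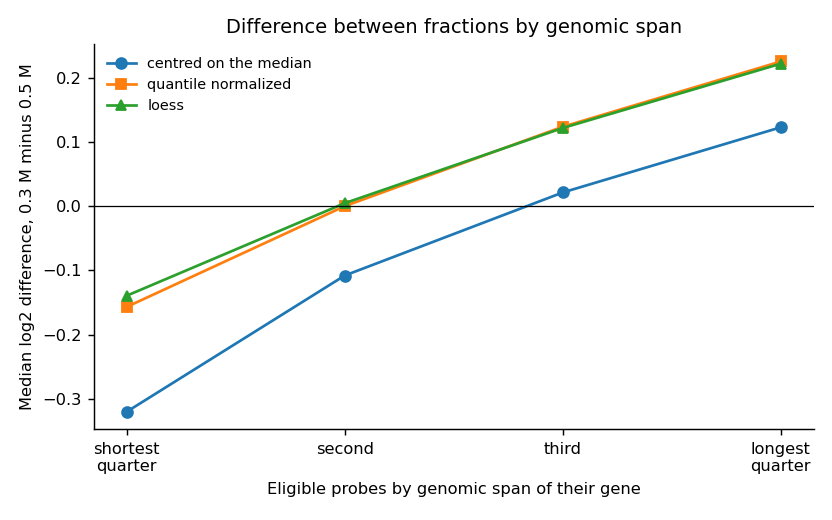
Median log2 difference, 0.3 M minus 0.5 M (vertical), of eligible probes in 4 groups of equal size by genomic span (horizontal, short to long), under 3 scalings. The median goes up with span under each scaling, at -0.32, -0.11, 0.02 and 0.12 when centred and at -0.14, 0.00, 0.12 and 0.22 with loess.

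Other probes of the same genes are the only second look that these arrays allow. They share the hybridisation and are no replicate. The array had 1 probe for 80 of the 87 genes and another probe for 7. In 5 of these genes another probe was measured in both fractions, and 4 of those 5 had a difference above 0, while 0 reached 2-fold. F5 was at 13 and 6 on its other probe (0.82), Nwd2 at 138 and 74 (0.60), Zfyve26 at 17 and 10 (0.47) and Peak1 at 15 and 9 (0.44). Evi5l, at 1079 and 435 on the probe of the set, was at 40 and 38 on the other (-0.23). Prdm15 had 9 at 0.3 M on its other probe and no value at 0.5 M, and Ticrr had 12 and no value. For these genes, the entry into the set thus rests on 1 of several probes.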

How the data were processed

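RNA of 2 vesicle fractions was amplified with an amino allyl kit, labelled with Cy5 and hybridised to 1 single-colour array each, per the labels' protocols. The deposited values are probe intensity values on a linear scale in whole numbers. How the authors scanned, corrected and normalized them, and why some cells are empty, is not stated in the labels or the file. Of 23473 probes, 18969 have a value at 0.3 M and 16732 at 0.5 M. Precision is limited by the number of arrays.

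Of these probes 20690 carry 1 symbol, and 20565 of them were matched by gene ID or accession to RefSeq (GRCm38.p6), which gave span and promoters. Intensities were log2-transformed and centred on each array's median over 16154 shared probes. Members and gene lists were chosen with earlier results of these data known. The rule for printed values took the largest ratios, the brightest probes, list members, genes with other probes and the edges of the threshold, and the remaining members were added by role. The 3 probes past the ratio and at 4000 or more on both arrays and those kept out by the 0.5 M floor were named after their values were seen. Alternatives were quantile normalization, a loess trend (span 0.3), a pseudocount of 16, other floors, a 3-fold threshold and the mean over probes. Calculations used Python 3.11.15, pandas 2.3.3, numpy 2.4.6 and statsmodels 0.14.6 and were tested on simulated data. No test was run, since each fraction has 1 array.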

Additional observations from a re-analysis of the deposited data

How the results depend on the processing

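The 87 genes were above 0 and at least 2-fold higher at 0.3 M under quantile normalization and under loess, with differences from 1.05 to 1.77 and from 1.03 to 1.86. A pseudocount of 16 left 62 of the 87 at 2-fold, and the mean over the probes of a gene left 82, with the lowest at 0.39 (Evi5l). How many probes pass depends on the scaling, and so does the direction in which more of them pass. Beside 87 with centring, 188 eligible probes were 2-fold higher at 0.3 M with quantile normalization, 193 with loess and 366 as deposited, while those 2-fold higher at 0.5 M numbered 226 with centring, 100, 91 and 58 in these settings and 111 with the pseudocount. Floors of 100 and 50 gave 55 genes and a 3-fold threshold 3. The median difference of the set was 1.12 with centring, 1.42 as deposited, 1.34 with quantile normalization or loess and 1.12 with the pseudocount. With quantile normalization and with loess, zinc finger genes had 8 of 82 eligible probes and G protein-coupled receptors 5 of 24. Predicted and RIKEN genes had 12 of 291. Over all 4476 eligible probes the counts also rose, to 188 and 193, so nothing is read from the larger list counts. Of the 4 groups by gene span, the second had a median of 0.0046 with loess, against -0.11 with centring. That scaling by span, and the removal of the upper limit on intensity (90 genes), were chosen after seeing the data. The cause of these shifts was not tested. No paired analysis was possible because each fraction has 1 array. Dim probes limit the set, since 25 of the members were under 2-fold with the pseudocount.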

Other observations

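The floor of 25 at 0.5 M kept out 11 probes that passed the ratio and reached 60 at 0.3 M. Cd244a, a receptor of NK cells and cytotoxic T cells, was at 63 and 16, a ratio of 3.94 that exceeds those of all 87 genes. Adgrg7, an adhesion G protein-coupled receptor, was at 84 and 23 (3.65) and Ubap2l, a protein of stress granules, at 63 and 18 (3.50). Without that floor the set would hold 98 genes.

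Of the 87 genes, 83 are protein-coding (95.4%, against 94.8% of eligible probes and 88.3% of the probes 2-fold higher at 0.5 M). Chromosome 7 held 9 of them (10.3%, against 8.78% of eligible probes), chromosome 3 held 7 (8.05%, against 4.65%), the X chromosome 4 (4.60%, against 2.77%), chromosome 11 held 6 (6.90%, against 8.56%), chromosome 2 held 4 (4.60%, against 7.55%) and chromosome 6 held 2 (2.30%, against 5.50%).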
